A study of Mus musculus with 8 samples.

Results

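Müller glia are the radial glial cells that span the retina, and with the astrocytes of the nerve fibre layer they make up its macroglia. In health they recycle retinoid, buffer water, potassium and acid, and carry a transcription factor set shared with retinal progenitors. After injury they become reactive: filament proteins, acute-phase proteins and surface adhesion proteins are induced, a state called gliosis, while the support genes may be kept or lost. The 33 genes described here are 16 glial identity genes and 17 reactive genes, taken from the table by symbol. All 33 were found among the 25477 genes of the deposited table, and all 33 passed the filter on low counts that left 16861 genes. Of the defining markers, Rlbp1 was at 317 CPM (counts relative to the library total after TMM adjustment) or more and Gfap at 59.2 CPM or more in every library.

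The data came from 8 retina samples of mice with choroidal neovascularization (CNV), growth of choroidal vessels under the retina. The labels gave 4 as PD-L1 knockout (KO-CNV) and 4 as control (WT-CNV), with CNV shared by both groups, and the comparison asks what the loss of the immune checkpoint ligand PD-L1 changed in the diseased retina. Strain, age, sex, the way and time of CNV induction, and whether the deletion was in all cells are not stated in the labels. Nor do they say whether each sample is a separate animal, so p-values measure only sample-to-sample spread, which may be technical. Polyadenylated RNA was sequenced, and a library held 31743404 to 36438248 counts. The titles number the libraries from 1 to 4 within each group, and those numbers are used here.

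Some libraries stood apart. Lens transcripts (15 genes) summed to 2050 CPM in knockout 3, 4870 in control 2 and 1380 in control 3, against 4.01 to 25 CPM in the other knockouts and 16 to 36.4 CPM in the other controls. On the first principal component (31.6% of the variance) the knockouts lay between -28.14 and -20.28 and controls 1 to 3 between 17.67 and 45.06, but control 4 was at -6.95. Short transcripts also differed by library: the median deviation of 997 genes under 1000 bases was 0.288 (log2) in control 2 and -0.292 in control 4. Cd274, the PD-L1 gene, had 9 to 15 counts per knockout library and 117 to 165 per control library (log2 fold change -3.73, SE 0.27, edgeR adjusted p = 1.57e-05), so each library carried the level its label implies. The labels do not state which part of the gene was deleted.

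Reactive genes were higher in the PD-L1 knockout retinas and identity genes mostly did not pass the test. Of 17 reactive genes 10 rose, and of 16 identity genes 1 rose (edgeR quasi-likelihood test, adjusted p under 0.05), where 1.20% of all genes tested were higher and 2.55% passed in either direction. None of the 33 fell by edgeR, where 1.35% of all genes tested were lower. None was lower by DESeq2 or limma-voom, or by edgeR at an unadjusted p under 0.05. Of all genes, DESeq2 called 3.82% higher and 4.64% lower (15591 genes with an adjusted p), limma-voom 1.34% higher and 1.51% lower, and at an unadjusted p under 0.05 edgeR had 10.5% higher and 10.8% lower. These shares are the background for every count by those rules given further on. The members and lists were chosen with earlier results of these data known. Counts set against the shares are therefore descriptions and not tests of an excess. By edgeR at an unadjusted p under 0.05, 11 reactive and 6 identity genes were higher. DESeq2 called 10 reactive and 5 identity genes higher. Fold changes were positive for 14 reactive and 14 identity genes, where 8400 of the 16861 genes tested were positive. The median log2 fold change was 0.49 over the reactive genes and 0.19 over the identity genes, against 0.00 over all genes tested. All 4 knockout libraries lay above all 4 controls for 9 reactive and 3 identity genes, where 5.19% of all tested genes did so. None of the 33 lay wholly below, where 5.78% of all tested genes did. Without the 3 libraries rich in lens transcripts, 2 reactive genes and no identity gene passed (3 knockouts against 2 controls), and the medians were 0.43 for reactive and 0.10 for identity genes; 0.0403% of all genes in that fit were called higher. At an unadjusted p under 0.05, 11 reactive and 2 identity genes were higher there, where 3.60% of all genes in that fit were.

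**Figure D1:**
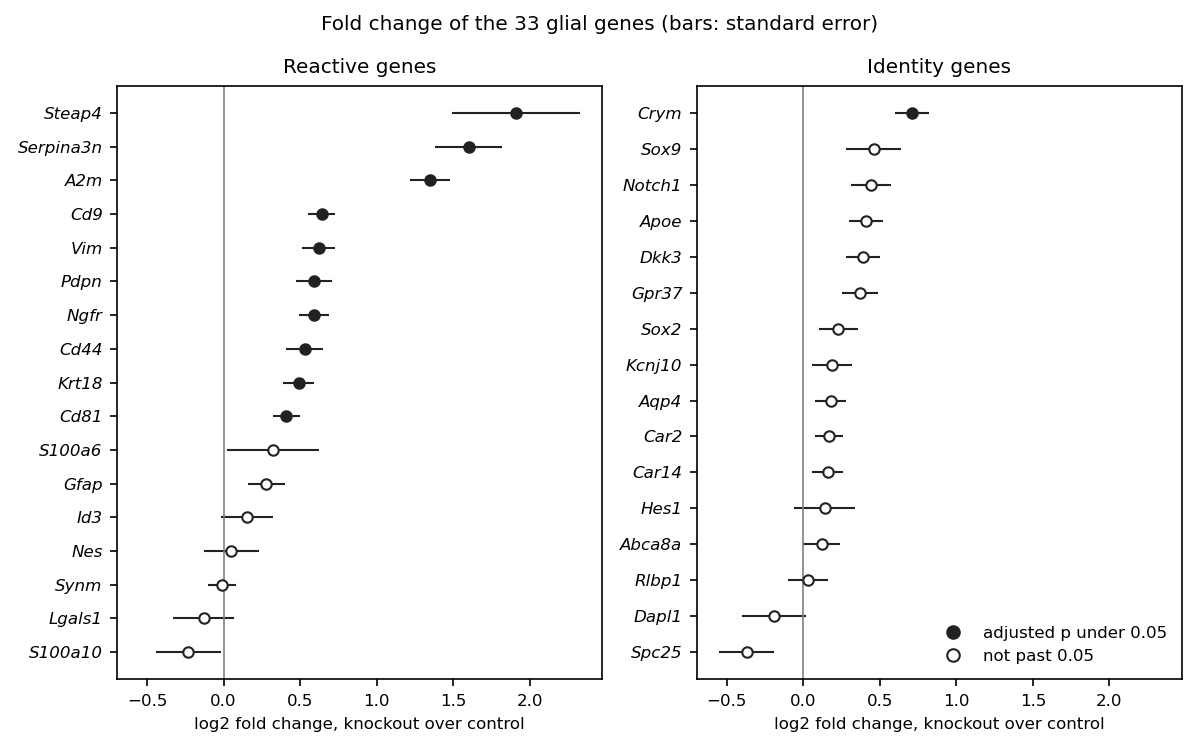
Log2 fold change, knockout over control, of the 17 reactive genes (left) and the 16 identity genes (right), with the standard error of the edgeR fit as bars; filled points passed an adjusted p of 0.05. Steap4, Serpina3n and A2m lie beyond 1, the other 7 reactive genes that passed lie between 0.41 and 0.64, and Crym, at 0.71, is the filled point among the identity genes.

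The 3 reactive genes with the largest fold changes encode proteins induced by inflammation. A2m (Entrez gene 232345, mm10 chromosome 6, 121636165 to 121679238) encodes alpha-2-macroglobulin, a broad protease trap. It stood at 42.3, 35.7, 43.0 and 40.2 CPM in knockouts 1 to 4, against 19.8, 13.9, 13.8 and 15.9 CPM in controls 1 to 4. The groups did not overlap, and the lowest knockout was well above the highest control. A2m rose by 1.35 on the log2 scale (SE 0.13, edgeR adjusted p = 0.00015), and its adjusted p was at most 0.00165 with any 1 library left out. It also passed without the 3 lens-rich libraries, at 1.15 (adjusted p = 0.0111).

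Serpina3n (Entrez gene 20716, chromosome 12, 104406646 to 104414334), a serine protease inhibitor induced in reactive astrocytes, was at 77.9, 61.9, 92.1 and 74.6 CPM in the knockouts. The controls had 39.6, 18.1, 17.3 and 26.4 CPM. Control 1 was the highest control for both A2m and Serpina3n and still lay below every knockout. Serpina3n rose by 1.60 (SE 0.22, adjusted p = 0.00379; at most 0.0205 with any library left out), and by 1.12 without the lens-rich libraries (adjusted p = 0.047). A2m and Serpina3n were the 2 reactive genes that passed there. Serpina3n belongs to a family of similar genes in the mouse, whose reads can be shared.

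Steap4 (Entrez gene 117167, chromosome 5, 7960472 to 7982213), a metalloreductase of the plasma membrane induced by inflammatory cytokines, had the largest fold change and the widest spread of the 33. It was at 8.51, 3.13, 8.40 and 5.55 CPM in knockouts, against 3.17, 0.911, 0.832 and 1.89 CPM in controls. Knockout 2 fell just below control 1, so the groups overlapped. Steap4 rose by 1.91 (SE 0.42, adjusted p = 0.0351), and it rested on 108 to 301 counts per knockout library and 27 to 101 per control library. This was lost with knockout 1, 3 or 4 or control 2 or 3 left out (largest adjusted p 0.13). Without the lens-rich libraries the value was 1.19 (adjusted p = 0.549).

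The sequence before the start sites of the member genes was searched for TTCNNNGAA, the palindromic core bound by STAT factors. These factors carry the cytokine signal that drives the acute-phase response. Promoter windows of 250 bases before to 50 after the start site, from RefSeq on GRCm38.p6, were found for 14 reactive and 10 identity genes. A2m had no window and was not searched. The motif was in 2 of the 14 (14.3%, Steap4 and Gfap) and in none of the 10, against 8.30% of 32851 windows and 9.55% of 27025 genes of the RefSeq promoter table. Shown are the matches of Steap4 and of Gfap, where the match spans the start site. Capitals mark TTCNNNGAA; each runs 5′ to 3′ on the strand of the gene.
Steap4, 250 bases before the start, chr5:7960222-7960471, plus strand: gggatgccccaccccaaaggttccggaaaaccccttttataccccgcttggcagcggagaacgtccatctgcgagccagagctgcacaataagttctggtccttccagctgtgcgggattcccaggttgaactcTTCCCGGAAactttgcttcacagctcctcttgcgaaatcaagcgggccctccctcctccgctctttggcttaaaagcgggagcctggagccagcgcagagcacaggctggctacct
Gfap, 60 bases before and 10 from the start, chr11:102897191-102897260, minus strand: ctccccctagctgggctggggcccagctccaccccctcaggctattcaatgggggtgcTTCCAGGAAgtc
The motif GTGGGAA, bound by the Notch effector RBPJ, was in 1 of 10 identity genes (Abca8a) and 1 of 14 reactive genes (Cd9) on either strand, against 6.38% of all windows and 7.25% of all genes of the promoter table. Such a match is a description of these letters and not a binding site, and its absence says only that the letters are not in the window.

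Intermediate filament genes, the structural core of gliosis, divided. Vim (chromosome 2, 13574311 to 13582826) encodes vimentin, the main filament of Müller glia. Its level was 161, 177, 233 and 206 CPM in knockouts, against 132, 135, 112 and 128 CPM in controls. Every knockout lay above every control. Vim rose by 0.62 (SE 0.11, adjusted p = 0.0171), a result lost with knockout 3 or 4 or control 1 or 3 left out (largest adjusted p 0.0692). Krt18, a keratin of simple epithelia, was at 41.1, 44.4, 53.3 and 38.5 CPM in knockouts and 30.6, 33.1, 31.1 and 31.2 CPM in controls. It rose by 0.49 (SE 0.10, adjusted p = 0.0305), and the call was lost with knockout 2 or 3 or control 1, 2 or 3 left out (largest adjusted p 0.112).

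Gfap (Entrez gene 14580, chromosome 11, 102887336 to 102897200), the classical filament of reactive macroglia, did not pass. Its level was 79.9, 91.5, 91.9 and 106 CPM in knockouts 1 to 4 and 83.2, 76.8, 85.2 and 59.2 CPM in controls 1 to 4. Knockout 1 lay below controls 1 and 3, so the groups overlapped, and control 4 was the lowest library. The log2 fold change was 0.28 (SE 0.12, adjusted p = 0.208), and it ranged from 0.18 to 0.33 with 1 library left out. Nes, encoding nestin, a filament of progenitors, averaged 6.92 ± 1.38 CPM in knockouts and 6.69 ± 0.941 CPM in controls (SD, n = 4 each; 0.05, SE 0.18). Synm, encoding synemin, which links filaments to each other, averaged 49.9 ± 4.26 CPM in knockouts and 50.2 ± 1.94 CPM in controls (-0.01, SE 0.09); its exons overlap those of Ttc23 on the other strand. For both genes the library ranges overlapped, and both values changed sign under some alternatives.

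Cd44, Cd9, Cd81, Pdpn and Ngfr, which encode adhesion, tetraspanin and receptor proteins of the cell surface, rose, and for none of these 5 did the groups overlap. Cd9, a tetraspanin that organizes membrane complexes, was at 60.5, 70.0, 71.2 and 76.4 CPM in knockouts and 46.6, 42.2, 43.3 and 46.6 CPM in controls. It rose by 0.64 (SE 0.09, adjusted p = 0.00379; at most 0.0207 with any library left out). Its relative Cd81 was at 71.5, 82.1, 81.6 and 77.5 CPM in knockouts and 60.0, 56.1, 53.2 and 66.4 CPM in controls, with control 4 the nearest to the knockouts. Cd81 rose by 0.41 (SE 0.09, adjusted p = 0.0375), but only control 4 or knockout 1 could be left out without ending the call (largest adjusted p 0.137).

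Ngfr, the low-affinity p75 receptor for neurotrophins, was at 36.5, 41.7, 40.2 and 43.3 CPM in knockouts and 26.4, 24.0, 26.0 and 31.4 CPM in controls. It rose by 0.59 (SE 0.10, adjusted p = 0.0116), and without control 3 the adjusted p was 0.0518. Pdpn, the membrane glycoprotein podoplanin, was at 59.2, 68.5, 76.5 and 84.1 CPM in knockouts, against 55.7, 46.3, 44.3 and 45.4 CPM in controls. Knockout 1 and control 1 were only a few CPM apart. Pdpn rose by 0.59 (SE 0.12, adjusted p = 0.0214), and the call was lost with knockout 3 or 4 or control 2 or 3 left out (largest adjusted p 0.0888). Cd44, the hyaluronan receptor, was at 19.0, 18.1, 24.6 and 22.0 CPM in knockouts and 15, 13.7, 14.8 and 14.4 CPM in controls. It rose by 0.53 (SE 0.12, adjusted p = 0.0402), the smallest margin of the 11, and the call was lost with knockout 3 or 4 or control 1, 2 or 3 left out (largest adjusted p 0.153).

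Cd44, Cd9 and Cd81, like Vim and Lgals1, are also made by macrophages and microglia, the immune cells of the retina. The 12 markers of those cells summed to 128 to 170 CPM in knockouts and 66.3 to 104 CPM in controls, without overlap, and none was at 0 in any library. Of the 12, 6 rose and none fell, 6 did not pass, and the median was 0.87. The fold changes ran from 0.03 (SE 0.20) for P2ry12 to 1.20 (SE 0.17) for C1qa. C1qa, the A chain of complement C1q, averaged 27.9 ± 3.59 CPM in knockouts and 12.2 ± 3.12 CPM in controls. P2ry12 averaged 4.29 ± 0.699 CPM in knockouts and 4.22 ± 0.745 CPM in controls. Whether these cells took part in the rise of the shared genes was not tested. In whole retina, fewer cells of a type and less RNA per cell cannot be told apart.

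**Figure D2:**
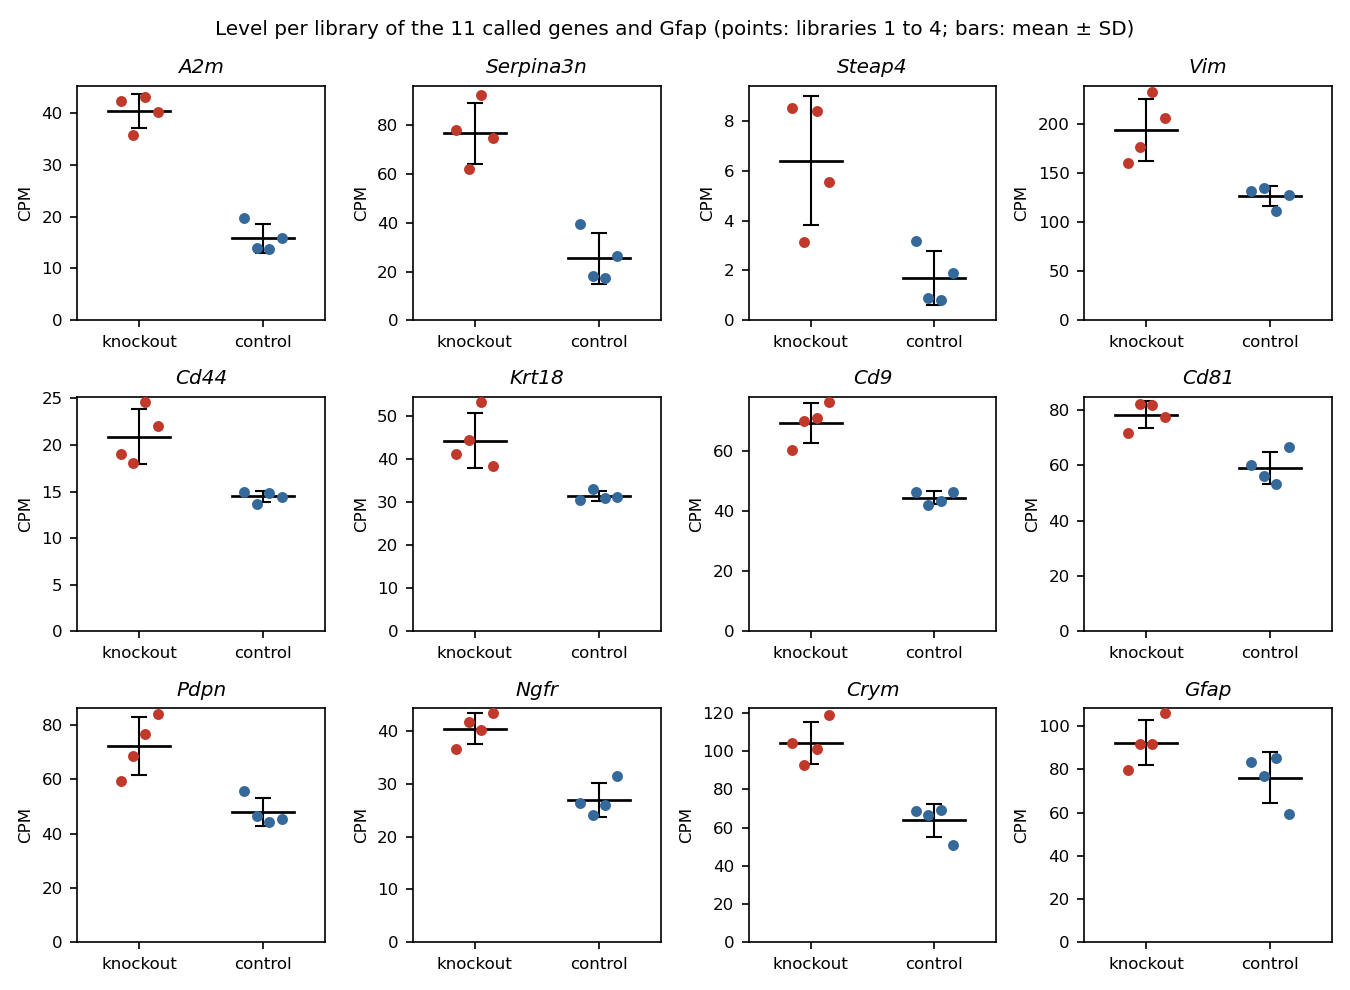
Level in CPM of the 11 genes that passed and of Gfap in each library, knockouts left and controls right, with the mean and SD as black lines. The groups are apart for 10 of the 11, Steap4 overlaps in 1 pair of libraries, and the Gfap groups overlap.

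The small calcium-binding and lectin genes of the reactive set did not pass. S100a10, the partner of annexin A2, was at 21.4, 20.6, 23 and 29.6 CPM in knockouts and 28.8, 37.5, 29.0 and 15.6 CPM in controls. The controls held both the highest and the lowest library, and the log2 fold change was -0.23 (SE 0.21, adjusted p = 0.549). Without control 4 it was -0.43 (adjusted p = 0.0409), and without the lens-rich libraries 0.11. S100a6 was at 17.3, 9.07, 19.8 and 18.9 CPM in knockouts and 13.2, 19.0, 14.2 and 5.77 CPM in controls (0.32, SE 0.30, adjusted p = 0.566). Lgals1, encoding galectin-1, averaged 20.1 ± 4.20 CPM in knockouts and 22.0 ± 6.37 CPM in controls (-0.13, SE 0.20). Id3, an inhibitor of basic helix-loop-helix factors induced by BMP signals, averaged 14.5 ± 3.64 CPM in knockouts and 13.2 ± 1.58 CPM in controls (0.15, SE 0.17).

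These 4 and the identity gene Dapl1 are the members whose gene length in the FPKM table is under 1000 bases (573 to 953), and none of the 5 passed. Dapl1, S100a10 and Lgals1 had their highest level in control 2, and Dapl1, S100a10, S100a6 and Lgals1 their lowest in control 4, the libraries where short genes in general were highest and lowest. A correction for the trend with gene length in each library, added after the data were seen, gave -0.06 for S100a10, -0.01 for Lgals1, 0.49 for S100a6, 0.21 for Id3 and 0.00 for Dapl1, and none passed. With that correction 9 reactive genes rose, and Cd81 missed the threshold (adjusted p = 0.0632). Of all genes, 250 were then called higher and 291 lower, against 203 and 227 without the correction.

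**Figure D3:**
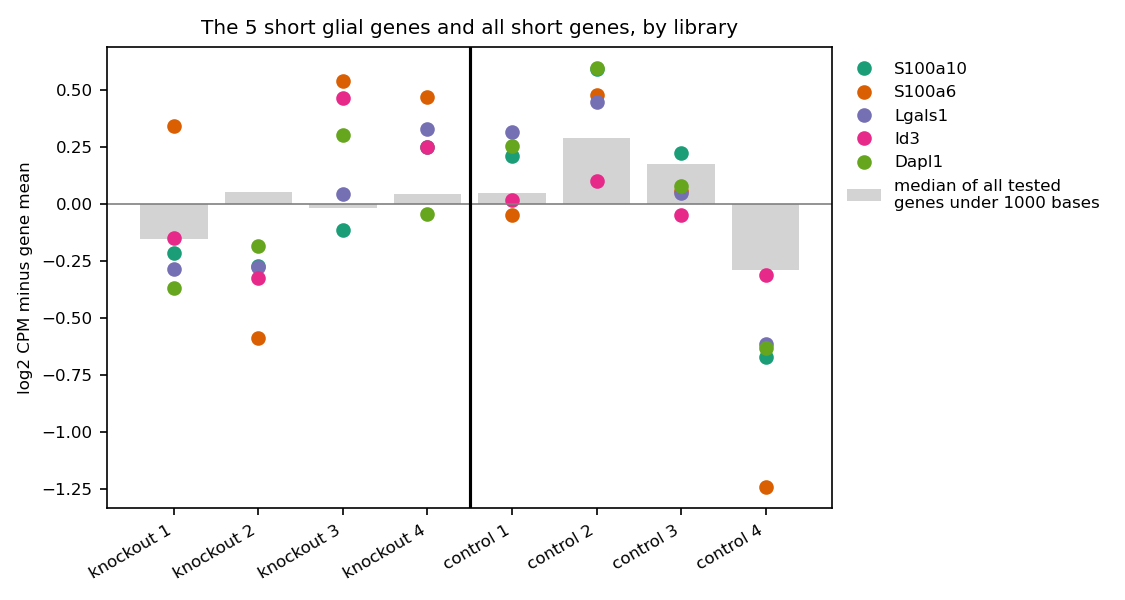
Log2 CPM minus the mean of the gene over 8 libraries for the 5 members under 1000 bases (points), with the median of all 997 tested genes of that length as grey bars, knockouts left and controls right. The bars run from 0.288 in control 2 to -0.292 in control 4, and all 5 points lie below 0 in control 4.

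Among the identity genes, Crym (Entrez gene 12971, chromosome 7, 120186380 to 120201989) was the exception that rose. It encodes mu-crystallin, a cytosolic thyroid hormone-binding protein that is not a lens crystallin in the mouse. Knockouts had 104, 92.8, 101 and 119 CPM, and controls 68.4, 66.5, 69.2 and 50.7 CPM. The groups lay far apart, with control 4 below the other controls. Crym rose by 0.71 (SE 0.11, adjusted p = 0.0073; at most 0.0287 with any library left out), and without the lens-rich libraries it was at 0.83 (adjusted p = 0.0996).

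The transport and homeostasis genes of Müller glia did not pass. Rlbp1 encodes CRALBP, which carries retinoid in Müller glia and pigment epithelium. It was at 317, 475, 380 and 429 CPM in knockouts and 419, 430, 377 and 342 CPM in controls, with the lowest and the highest library both knockouts (0.03, SE 0.13, adjusted p = 0.917). Aqp4, the water channel of the endfeet, averaged 159 ± 22.6 CPM in knockouts and 141 ± 9.74 CPM in controls (0.18, SE 0.10). Kcnj10, the potassium channel Kir4.1 that lies with it, averaged 89.1 ± 17.3 CPM in knockouts and 77.8 ± 7.91 CPM in controls (0.19, SE 0.13). The carbonic anhydrases Car2, in the cytosol, and Car14, in the membrane, stood at 0.17 (SE 0.09) and 0.16 (SE 0.10) on the log2 fold scale. Abca8a, a lipid transporter, had 0.12 (SE 0.12). For these 6 genes the adjusted p was between 0.297 and 0.917, and the groups overlapped.

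Dkk3, Apoe and Gpr37, secreted and signalling genes of the identity set, did not pass by edgeR. Dkk3, a secreted glycoprotein of the Dickkopf family abundant in Müller glia, was at 801, 893, 939 and 991 CPM in knockouts and 735, 615, 614 and 801 CPM in controls. Knockout 1 and control 4 were equal to the 3 digits given, and knockout 1 was higher by a fraction of a CPM. The log2 fold change was 0.39 (SE 0.11, adjusted p = 0.0801). Apoe, the lipid carrier that glia supply to neurons, was at 609, 688, 756 and 790 CPM in knockouts and 633, 486, 488 and 533 CPM in controls (0.41, SE 0.11, adjusted p = 0.0758). Gpr37, a receptor of glia also made by oligodendrocytes, averaged 152 ± 16.1 CPM in knockouts and 118 ± 18.9 CPM in controls (0.37, SE 0.12, adjusted p = 0.102). DESeq2 called all 3, with adjusted p of 0.0161 for Dkk3, 0.0139 for Apoe and 0.0467 for Gpr37. Without the lens-rich libraries their edgeR values were 0.23, 0.26 and 0.21 (smallest adjusted p 0.727). Apoe is also a microglial gene, and the summed microglial markers were higher in every knockout than in every control, as given above. Whether microglia took part in the Apoe values was not tested.

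The transcription factor and Notch genes, which hold Müller glia in their state, all had positive fold changes. Sox9 was at 15.2, 15.2, 14.2 and 13.9 CPM in knockouts and 10, 8.55, 8.53 and 15.4 CPM in controls. The knockouts varied by 4.68% (coefficient of variation), the smallest value of the identity genes there, and control 4 was the highest of the 8 libraries. The log2 fold change was 0.46 (SE 0.18, adjusted p = 0.168), 0.69 without control 4 (adjusted p = 0.00214) and 0.22, without passing, when the lens-rich libraries were left out. Notch1, the receptor, was at 34.7, 38.5, 33.1 and 35.8 CPM in knockouts and 26.5, 19.4, 27.3 and 31.2 CPM in controls. The groups did not overlap (0.44, SE 0.13, edgeR adjusted p = 0.0814). Of 13 alternatives that kept to no single-library omission, Notch1 passed in 2. These were DESeq2 (adjusted p = 0.0289) and edgeR with the gene length correction (adjusted p = 0.0294). Sox2 averaged 33.8 ± 3.99 CPM in knockouts and 28.9 ± 4.71 CPM in controls (0.23, SE 0.13). Hes1, the repressor induced by Notch, averaged 16.2 ± 4.76 CPM in knockouts and 14.7 ± 2.67 CPM in controls (0.14, SE 0.20). Of 24 other Notch pathway genes none passed by edgeR (1 higher and 1 lower at an unadjusted p under 0.05), none by limma-voom and 1, lower, by DESeq2. The smallest p was that of the ligand Jag1, at -0.36 (SE 0.11, adjusted p = 0.11).

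Spc25 and Dapl1 had negative fold changes, unlike the other 14 identity genes. Spc25 encodes a kinetochore subunit and is a marker of mouse Müller glia. It was at 95, 142, 120 and 164 CPM in knockouts and 154, 217, 181 and 121 CPM in controls (-0.37, SE 0.18, adjusted p = 0.253), and at -0.50 without control 4 (adjusted p = 0.0358). It was at -0.22 without control 2, -0.23 with the lens sum as a covariate and -0.04 without the lens-rich libraries (adjusted p = 0.981). It was far more abundant than the genes of cell division listed with it: Mki67, a marker of cycling cells, averaged 2.37 ± 0.718 CPM in knockouts and 1.01 ± 0.351 CPM in controls (1.23, SE 0.33, adjusted p = 0.0652). Of 7 such genes tested none passed by edgeR or limma-voom, 3 were higher at an unadjusted p under 0.05 and 1 passed by DESeq2. Dapl1, a small protein gene also active in pigment epithelium, averaged 22.3 ± 4.54 CPM in knockouts and 25.4 ± 8.27 CPM in controls (-0.19, SE 0.21).

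The number of identity genes called depended on control 4. Without it, 6 identity genes rose (Crym, Dkk3, Sox9, Apoe, Notch1 and Gpr37) and Spc25 fell, and 10 reactive genes rose and S100a10 fell, while 3209 genes passed in all in place of 430 (10.5% of all genes in that fit higher and 8.18% lower). With any other library left out, 1 identity gene rose, and 3 to 9 reactive genes did. The lowest count, 3, came without control 3. The reactive count was 4 without knockout 3, 5 without knockout 4 or control 2, and 6 without control 1. The number of all genes called higher fell too, from 203 with every library kept. It was 62 without knockout 3, 68 without control 3, 80 without control 2, 90 without knockout 4 and 98 without control 1. It was 139 without knockout 1 and 129 without knockout 2.

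Library by library, the medians of the reactive genes separated the groups and those of the identity genes did not. The median deviation of the reactive genes from their own means was 0.08, 0.14, 0.39 and 0.35 (log2) in knockouts 1 to 4 and -0.07, -0.21, -0.26 and -0.31 in controls 1 to 4, without overlap. For the identity genes it was -0.03, 0.13, 0.17 and 0.29 in knockouts and 0.02, -0.23, -0.19 and 0.00 in controls, with knockout 1 below controls 1 and 4. The difference of these medians, reactive minus identity, was 0.11, 0.00, 0.22 and 0.06 in knockouts and -0.09, 0.02, -0.06 and -0.31 in controls. Those ranges overlapped, since knockout 2 lay below control 2. Knockout 4 held the highest level of 10 identity genes and knockout 3 that of 7 reactive genes, while control 3 held the lowest level of 7 identity and 6 reactive genes.

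**Figure D4:**
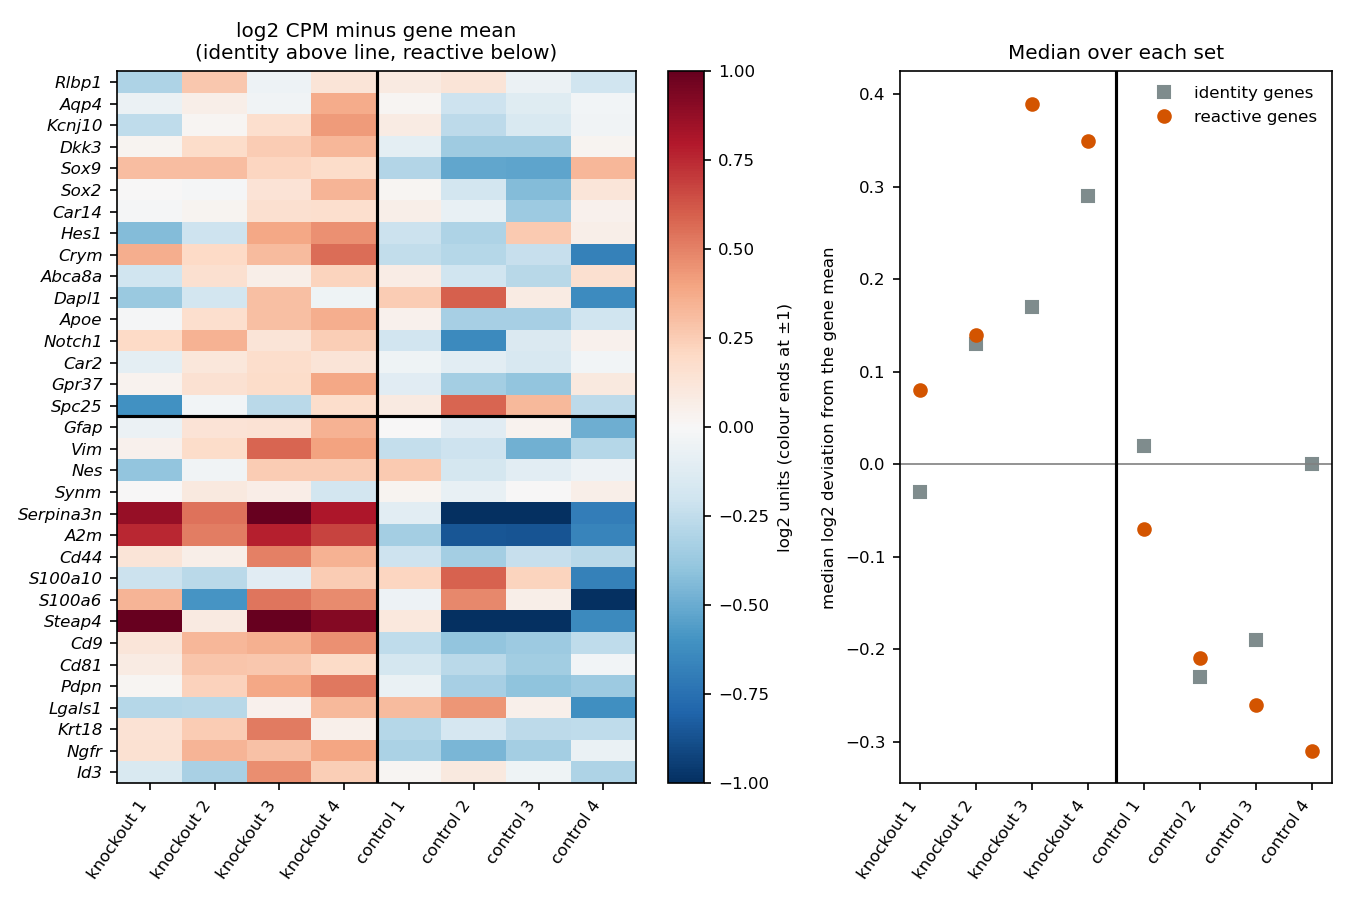
Left, log2 CPM minus the gene mean over 8 libraries (colour) for the 16 identity genes above the line and the 17 reactive genes below it, knockouts left and controls right; right, the median of each set per library. The reactive medians are 0.08 to 0.39 in knockouts and -0.31 to -0.07 in controls, while the identity medians overlap.

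Per unit of length, the identity genes were the more abundant set. In the deposited FPKM values, which divide counts by gene length as well as by library total, Apoe led with 293 ± 29.1 in knockouts and 218 ± 30.2 in controls, followed by Dkk3, Car2 and Rlbp1 in knockouts and by Car2, Dkk3 and Rlbp1 in controls. Vim was the most abundant reactive gene, at 106 ± 15.3 FPKM in knockouts and 68.6 ± 5.49 FPKM in controls. Gfap was at 12.5 ± 1.34 FPKM in knockouts and 10.2 ± 1.61 FPKM in controls, rank 24 of 33 in both groups. Serpina3n was at rank 16 in knockouts with 34.6 ± 5.33 FPKM, and at rank 22 in controls with 11.3 ± 4.72 FPKM. Steap4 and Nes had the lowest levels, with at most 2.05 FPKM on average in either group. The median coefficient of variation was 14.8% in knockouts and 12% in controls for reactive genes, and 11.6% in knockouts and 14.1% in controls for identity genes.

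Other glial genes, from lists of the same programmes, were counted in the same way. Of 14 further Müller glia genes 2 rose and none fell, with a median of 0.14. By edgeR at an unadjusted p under 0.05, 5 were higher and 1 was lower. DESeq2 called 4 higher and limma-voom 2, and neither called any lower. All 4 knockout libraries lay above all 4 controls for 3 of the 14. Clu, the chaperone clusterin, averaged 997 ± 108 CPM in knockouts and 559 ± 112 CPM in controls and rose by 0.83 (SE 0.14, adjusted p = 0.0091). Aldoc, the glycolytic aldolase C, rose by 0.46 (adjusted p = 0.0424), a result lost when any library except control 4 was left out (largest adjusted p 0.143). Of 7 further genes of the pan-reactive astrocyte signature tested, 5 rose, with a median of 0.99. Lcn2, an iron-binding acute-phase protein, averaged 51.0 ± 19.2 CPM in knockouts and 8.89 ± 3.58 CPM in controls. Osmr, the oncostatin M receptor, averaged 22.3 ± 1.14 CPM in knockouts and 11.2 ± 1.61 CPM in controls. Cp, encoding ceruloplasmin, averaged 384 ± 46.8 CPM in knockouts and 221 ± 38.1 CPM in controls.

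Of the 11 genes tested from the list called A1, induced in astrocytes by inflammation, 6 rose, none fell and the median was 0.93. In this list, the pan-reactive list and the microglial markers, none was lower at an unadjusted p under 0.05 or by DESeq2 or limma-voom. Serping1, the C1 inhibitor, averaged 36 ± 7.77 CPM in knockouts and 12.9 ± 2.39 CPM in controls. Gbp2, an interferon-induced GTPase, rose by 1.5 (adjusted p = 0.002), and H2-T23, a class I gene whose family can share reads, by 1.39 (adjusted p = 0.00247). Many A1 genes are induced by interferon in other cells too, and whole retina does not show which cells carried them. Of the 9 genes tested from the list called A2, induced after ischaemia, none passed by edgeR, DESeq2 or limma-voom, 1 was higher at an unadjusted p under 0.05, and the median was -0.03. Ptgs2, cyclooxygenase 2, had the smallest p, at 0.627 ± 0.289 CPM in knockouts and 0.247 ± 0.0291 CPM in controls (1.33, SE 0.45, adjusted p = 0.123). Of the 33 genes, Gfap, Vim, Serpina3n, Cd44 and Steap4 belong to the pan-reactive signature and S100a10 to A2.

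Relatives of single members mostly did not pass. Of 11 other intermediate filament and linker genes tested, Nefl, the light neurofilament of neurons, fell by 0.45 (SE 0.10, adjusted p = 0.0351), at 351 ± 32.2 CPM in knockouts and 481 ± 39.7 CPM in controls. It was lost when any library except control 4 was left out (largest adjusted p 0.107). Krt8, the partner of Krt18, was at 1.70 ± 0.656 CPM in knockouts and 0.889 ± 0.761 CPM in controls, far below Krt18, a comparison chosen after the values were seen (0.94, SE 0.54). None of 9 other S100 and annexin genes, 9 other tetraspanins, 3 other Id genes or 7 neurotrophin genes passed by edgeR or limma-voom. At an unadjusted p under 0.05, 3, 3, 0 and 1 of them were higher, and 1 neurotrophin gene was lower. DESeq2 called 1 tetraspanin gene higher and no other. The smallest p in these lists were those of S100a13 (0.55, adjusted p = 0.158), Tspan3 (0.31, adjusted p = 0.0834), Id4 (0.13, adjusted p = 0.607) and the ligand Bdnf (-0.42, adjusted p = 0.15).

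Several members are also made by other cells, whose markers were summed per library. The 6 genes listed as retinal astrocyte markers summed to 429 to 481 CPM in knockouts and 432 to 504 CPM in controls. They had 3 positive and 3 negative fold changes and a median of 0.00. Slc1a2 alone averaged 396 ± 18.2 CPM in knockouts and 407 ± 26.0 CPM in controls, so the sum says little of the other markers. Which cells carried Slc1a2 was not tested, so the sum is not a measure of astrocyte content. Of the 6, Aldh1l1, a folate enzyme of astrocytes, rose by 0.57 (edgeR adjusted p = 0.0154). That call was lost with knockout 3 or control 2 or 3 left out (largest adjusted p 0.0682). S100b, a calcium-binding protein of astrocytes, averaged 7.08 ± 1.18 CPM in knockouts and 12 ± 3.57 CPM in controls (-0.77, SE 0.21, adjusted p = 0.069), and DESeq2 called 1 of the 6 higher and 1 lower. The 10 marker genes of pigment epithelium, which also makes Rlbp1, Car14, Krt18, Sox9 and Dapl1, summed to 144 to 312 CPM in knockouts and 86.2 to 209 CPM in controls. The ranges overlapped, 7 of the 10 had positive fold changes and 3 negative (Pmel -0.58, Tyrp1 -0.44, Mlana -0.86), and none of these 3 passed. The median of the 10 was 0.75. At an unadjusted p under 0.05, 6 of the 10 were higher and none was lower, and DESeq2 called 3 higher and none lower. Rgr, a retinal opsin of that tissue and Müller glia, rose by 1.06 (adjusted p = 0.0444), a result lost with knockout 2, 3 or 4 or control 1, 2 or 3 left out (largest adjusted p 0.138). The 7 oligodendrocyte markers, relevant to Gpr37 and Car2, summed to 58.3 to 63.7 CPM in knockouts and 57.7 to 60.9 CPM in controls, with Mog, Mag and Mobp at 0 in at least 1 library. The 9 endothelial markers summed to 286 to 312 CPM in knockouts and 215 to 297 CPM in controls. Kdr and Flt1 held most of that sum, averaging 169 and 91.1 CPM in knockouts and 141 and 78.2 CPM in controls. All 9 fold changes were positive (median 0.48) and none passed by edgeR or limma-voom. At an unadjusted p under 0.05, 4 were higher, and DESeq2 called 2 higher. The 10 pericyte and fibroblast markers summed to 85.1 to 97.8 CPM in knockouts and 96.9 to 114 CPM in controls. Surface epithelium (8 genes, Krt14 and Krt4 at 0 in at least 1 library) summed to 1.5 to 3.39 CPM in knockouts and 3.43 to 28.8 CPM in controls, without overlap. All 5 of these genes that were tested had negative fold changes (median -2.38), and none passed by edgeR. At an unadjusted p under 0.05, 4 were lower, and DESeq2 called 2 lower and limma-voom 1. Haemoglobin and other red cell genes (5 genes, Alas2 at 0 in at least 1 library) summed to 1.68 to 4.03 CPM in knockouts and 10.1 to 14.5 CPM in controls, without overlap, and Hbb-bs fell by 2.23 (adjusted p = 0.00238). The 8 rod markers summed to 37000 to 54100 CPM in knockouts and 37400 to 49000 CPM in controls. The part of these cells in the members' values was not tested.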

How the data were processed

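Polyadenylated RNA of 8 retina samples (4 knockout, 4 control) was prepared with TRIzol and a VAHTS Universal V6 kit, per the labels' protocols. The tools were fastp, HISAT2 and HTSeq on mm10, per the submitters' processing notes; no source used here gives versions, annotation or strand setting. Whether reads of genes with exons on opposite strands were told apart is therefore not known (5 members: Car14, Notch1, Synm, Cd9 and Cd81). The authors deposited raw counts per gene and FPKM values; each FPKM equals the count over library total and 1 length per gene.

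Counts were fitted with edgeR 4.0.16 (R 4.3.3): TMM factors, filterByExpr (minimum count 10, total 15), quasi-likelihood test without covariates, Benjamini-Hochberg adjustment over 16861 genes, threshold 0.05. Fold changes divide knockout by control; their standard error (SE) is the log2 size over the square root of the F statistic. CPM divide by the TMM-adjusted library size; levels are mean ± SD over 4 libraries, and 3 counts are 0.084 to 0.0943 CPM. Counts without molecular identifiers do not show PCR duplicates. The fit was tested on simulated counts. Per-library set levels are medians of log2 CPM (prior count 2) minus the gene mean.

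The members and lists were chosen with earlier results of these data known. Named are all members, Cd274 and, per list, the 3 or fewer called genes of smallest p, or where none was called the 1 of smallest p. Marker lists of other cells are given as sums; the single markers named beside them and Krt8 were chosen after values were seen. Of 212 list entries, 1 was not analysed here. Positions and promoters are RefSeq on GRCm38.p6; promoters matched 24 members. Alternatives were RLE factors, library totals, 2 filters, DESeq2 1.42.0, limma-voom and limma-trend (limma 3.58.1) on log2(FPKM + 1) and log2(FPKM + 0.1), omission of single libraries, a block for the title number, and lens-rich libraries (over 100 CPM) left out or the lens sum as a covariate. A gene length correction (spline, 5 degrees of freedom), alone and with the block, was added after seeing the data.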

Additional observations from a re-analysis of the deposited data

Results flagged for a closer look

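Of 70 groups of 4 libraries examined (each of the 33 genes and both set medians, by group), 1 held a library far from the other 3; chance alone flags about 1 in 20. It was Crym in the controls, where control 4 was at 50.7 CPM and the other controls at 66.5 to 69.2 CPM. Without control 4 the log2 fold change of Crym was 0.62 (adjusted p = 0.000798), against 0.71 with it.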

How the results depend on the processing

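A2m and Serpina3n passed under all 13 alternatives that were not single-library omissions, and A2m, Serpina3n, Cd9 and Crym passed in all 8 fits without 1 library. In place of 430 genes in all, DESeq2 called 1320, no filter 690, log2(FPKM + 1) 228, the lens covariate 264 and the fit without lens-rich libraries 15. Leaving out 1 library gave 108 to 3209 genes, 1 to 6 identity genes higher and 0 to 1 lower, 3 to 10 reactive genes higher and 0 to 1 lower, and 13 to 64 genes of the other lists, against 26. Scaling by library totals called 207 higher and 131 lower (61.2% higher), against 203 and 227 (47.2%); log2(FPKM + 1) and log2(FPKM + 0.1) gave 65.8% and 64.5% higher. Identity genes called higher were 5 by DESeq2, 3 without a filter, 2 with the length correction and 0 without lens-rich libraries, against 1; reactive genes were 2 without lens-rich libraries, against 10. The other lists gave 43 genes by DESeq2, 40 without a filter and 1 without lens-rich libraries. The cause of these shifts was not tested; that fit has 3 knockouts and 2 controls. Deviations of knockouts and controls with the same title number correlated at 0.213, -0.041, 0.121 and 0.006. Those with different numbers correlated at -0.286 to 0.239, so these values do not decide whether the numbers pair the libraries. With the numbers as a replicate block 228 genes, 1 identity gene, 5 reactive genes and 17 of the other lists passed. With block and length correction these counts were 332, 1, 7 and 24. Both set medians moved by less than 1 SD between libraries throughout.

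Signs changed only for genes that did not pass. Rlbp1 was -0.07 to 0.12 with 1 library left out, -0.01 with the length correction and -0.02 with correction and block. Without 1 library Hes1 was 0.00 to 0.27, Dapl1 -0.37 to 0.01, Nes -0.03 to 0.16, Synm -0.05 to 0.05, Lgals1 -0.30 to 0.02 and Id3 0.00 to 0.25. Synm was 0.01 by library totals and by both FPKM fits, 0.03 with the length correction and 0.02 with correction and block. Dapl1 was 0.00 with the lens covariate. Without lens-rich libraries Abca8a was -0.04, Nes -0.14, S100a10 0.11 and Lgals1 0.04.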
